A study of Mus musculus with 2 samples.

Results

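The replication histone genes were taken as every gene of the deposited matrices whose symbol begins with Hist1h, Hist2h, Hist3h or Hist4h, the clustered histone genes. This gave 67 of 31053 genes, 54 of them on chromosome 13 (GRCm38, between positions 21715763 and 23934851), 10 on chromosome 3, 2 on chromosome 11 and 1 on chromosome 6. By the core or linker histone they encode, 6 are H1, 18 H2A, 18 H2B, 12 H3 and 13 H4 genes. Only 5 of the 67 have more than 1 exon in the representative GENCODE transcript, all of them H2B genes, Hist1h2bc among them.

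Core histones (H2A, H2B, H3 and H4) form the octamer around which DNA is wound, and linker histone H1 binds where the DNA enters and leaves it. The clustered genes are the source of new histones when DNA is copied. Their mRNAs are known as the main class of animal mRNAs that end in a conserved stem-loop, bound by Slbp, in place of a poly(A) tail. Some of these genes also make polyadenylated mRNA, which can persist in cells that no longer divide. The assay used here primes cDNA on poly(A), so it is not designed to read the stem-loop form.

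Cells came from the cervix of ovariectomised female C57BL6/129 mice, operated on at 7 to 8 weeks of age and left to recover for 2 weeks, with cells of 9 mice pooled in each of 2 single-cell 3′ libraries. Control mice were given nothing over the 15 days of the experiment. Progesterone mice were injected with 100 µg of E2 (estradiol) per day on 2 days to induce the progesterone receptor, and then carried a 25 mg pellet with a stated release of about 1 mg of progesterone per day over 21 days. The progesterone library therefore differs from the control library by the E2 injections as well as the pellet, and with 1 library per group no difference between the groups has a replicate check, so no p-value is given.

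After filtering, 4579 control cells held 20115550 UMIs (counted molecules; median 3733 per cell) and 8541 progesterone cells held 38097474 (median 4151). Cells were named by cluster from markers: 3009 control and 4593 progesterone cells were squamous-like, 224 and 1858 luminal-like, 328 and 437 neutrophil-like, 277 and 508 macrophage-like, and the rest fibroblast-like, endothelium-like or erythrocyte-like. A further 580 and 823 cells lay in 4 clusters that took no name. The squamous-like control cells were mostly of clusters 2, 3 and 5 and the squamous-like progesterone cells mostly of clusters 0, 4 and 11. Of 224 luminal-like control cells 217 were of cluster 13, while most luminal-like progesterone cells were of clusters 14 and 17. The libraries shared 19 barcode sequences. Levels are UMIs per 1000000 UMIs of the same cells (CPM), summed over cells, and all intervals are 95% and cover counting error only, since cells of 1 pool are not replicates.

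Because the assay primes on poly(A), the ends of the annotated transcripts were examined first. A stem-loop pattern was found in 45 of the 67 representative transcripts (GENCODE M21, GRCm38). The searched pattern was 16 bases long and allowed substitutions at set positions. The sequence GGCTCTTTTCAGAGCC was carried by 25 members of the H1, H2A, H2B and H3 families, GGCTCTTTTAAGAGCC by 6 members of the H1, H2B and H3 families, and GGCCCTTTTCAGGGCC by 7 members, all of them H4. The sites below, with the stem-loop in capitals, show that members with very different cell patterns carry the same element. They are printed on the gene's strand.
Hist1h2ap, chr13:21833026-21833048, minus strand: aaaaGGCTCTTTTCAGAGCCatc
Hist1h2ae, chr13:23570663-23570687, minus strand: caaaGGCTCTTTTCAGAGCCattca
Hist1h1e, chr13:23621777-23621801, minus strand: caaaGGCTCTTTTCAGAGCCaccca
Hist1h1c, chr13:23739508-23739532, plus strand: aaaaGGCTCTTTTCAGAGCCaccac
Hist3h2a, chr11:58955168-58955192, plus strand: caaaGGCTCTTTTCAGAGCCaccca
Hist1h3c, chr13:23745042-23745066, minus strand: aaaaGGCTCTTTTAAGAGCCaccta
Hist1h4d, chr13:23581946-23581970, plus strand: caaaGGCCCTTTTCAGGGCCactac
Hist1h4i, chr13:22040961-22040985, minus strand: taaaGGCCCTTTTTAGGGCCaccac

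What differed was how far the annotated transcript ran on. It ended 3 bases after the stem-loop in Hist1h2ap and 74 bases after it in Hist1h3c, but 151 bases after it in Hist1h2ae, 330 in Hist1h4i, 770 in Hist1h4d, 840 in Hist1h1c, 1153 in Hist1h1e and 1643 in Hist3h2a. A poly(A) hexamer (AATAAA or ATTAAA) lay in the last 50 bases of 17 of the 67 transcripts. The hexamers of 5 members are shown in capitals, since such a signal is the usual mark of a polyadenylated end.
Hist1h2ae, chr13:23570529-23570554, minus strand: cagcttctccAATAAAtgggtcaatt
Hist1h1c, chr13:23740332-23740357, plus strand: gtatgcttctAATAAAaagcgtttag
Hist3h2a, chr11:58956787-58956812, plus strand: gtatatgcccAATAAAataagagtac
Hist1h4i, chr13:22040641-22040666, minus strand: ttctgtttacATTAAAagtattctat
Hist2h2be, chr3:96223707-96223732, plus strand: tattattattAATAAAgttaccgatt

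In all, 22 members had the stem-loop within 100 bases of the annotated end, 23 had it followed by 100 bases or more, 15 had an annotation that stopped at the stop codon or at most 2 bases after it, and 7 ran past the stop codon without the pattern. Hist1h1b (chr13:21779883-21780625) belongs to the group that ends at the stop codon, and Hist1h2bc (chr13:23684199-23692908, 742 bases after the stop codon, spliced) to the last. The last group is mixed in length, with 48 bases after the stop codon in Hist1h1a and 2192 in Hist2h2be. An annotated end is not a measured one, and the files hold no read positions.

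All members but 5 were detected. At least 1 UMI was found for 62 of the 67 members in the control library and for 60 in the progesterone library, and Hist1h2aa, Hist1h2ba, Hist1h2bq, Hist1h4m and Hist2h2aa2 had none in either. For a gene with no UMI, 3 counts of the total correspond to 0.149 CPM in the control and 0.0787 CPM in the progesterone library. The members together held 15255 control and 17341 progesterone UMIs, and 12 of them held 80.1% of these. Median levels of a member were 2.59 CPM in control and 1.21 CPM in progesterone cells. The 15 members annotated to the stop codon held 12.8% of the UMIs, those with the stem-loop near the end 19.9%, those with the stem-loop followed by more sequence 52.6%, and those without the pattern and with a longer end 14.7%. The 17 members with a hexamer near the annotated end held 27.9% of the UMIs, with a median of 96 per member. The 50 without held 72.1%, with a median of 107.5. Whether the end of the mRNA set what was read was not tested.

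Several members are near copies, and a 90-base read can then fit more than 1 gene. In 27 members at least 50% of all 90-base windows of the transcript occurred in another gene, and their median was 39.0 UMIs against 143.5 UMIs for the other 40. How such reads were counted is not given in the sources used here. The share was 92.4% for Hist1h2ap, 83.9% for Hist1h2an, 71.6% for Hist1h2bk, 66.5% for Hist1h2af, 62.0% for Hist2h3c2, 60.6% for Hist1h2bn, 53.7% for Hist1h2ab and 50.2% for Hist1h3e, so the values of these 8 are uncertain. The same caution holds for Hist2h3c1 (100%), Hist1h2br (99.8%), Hist2h2aa1 (88.5%) and Hist1h2bl (66.8%), which are named further on. The share was 0 for Hist1h1b, Hist1h1a and Hist2h2be. Hist1h1e overlaps Hist1h2be on the same strand, so reads of those genes may not be separable.

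**Figure D1:**
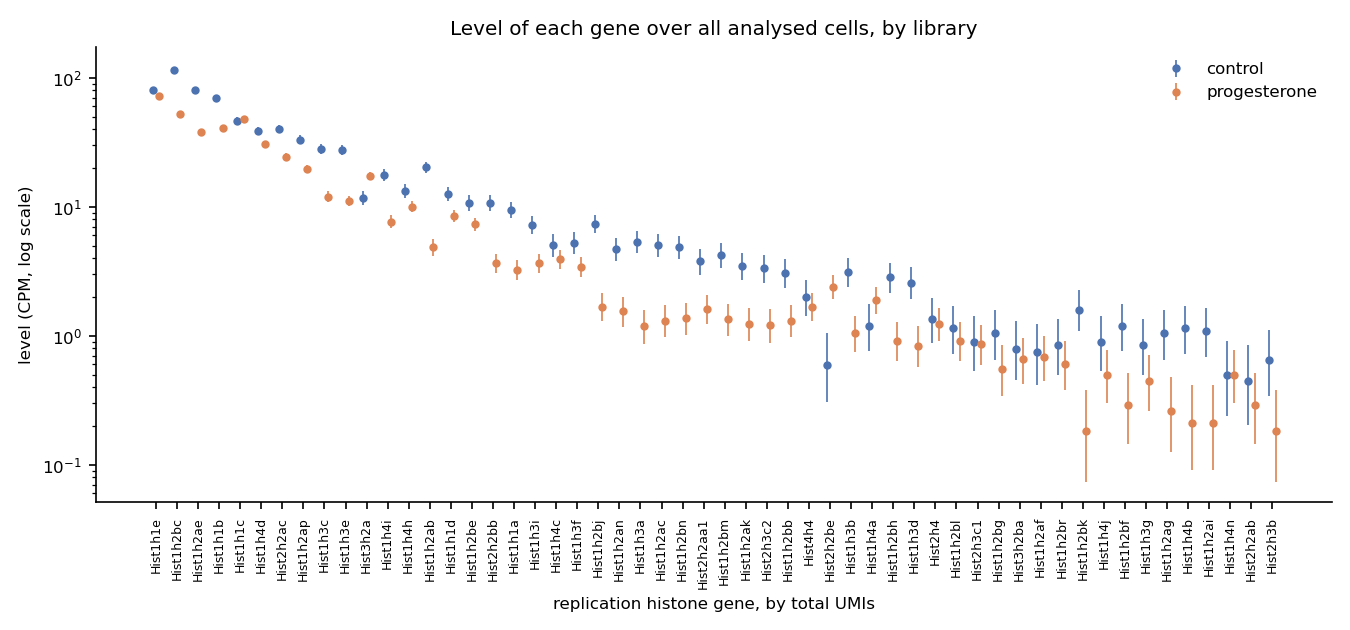
Level of each replication histone gene with at least 20 UMIs in both libraries together, over all analysed cells, in CPM on a log axis, ordered by total UMIs. Points are 1 library each and bars are 95% exact Poisson intervals; for most genes the progesterone point lies below the control point, and Hist1h1c, Hist3h2a and Hist2h2be are among those that do not follow this.

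The linker histone genes held the most UMIs, 33.7% of all member UMIs from 6 genes. Hist1h1e was read at 1607 control and 2772 progesterone UMIs and was found in 17.1% and 19.5% of cells. Hist1h1b was read at 1400 and 1547 UMIs in only 5.77% and 3.62% of cells, and a single cell held up to 38 control or 89 progesterone UMIs of it. Hist1h1c was read at 934 and 1823 UMIs in 13.6% and 15.3% of cells. So Hist1h1b was concentrated in few cells and Hist1h1c spread over many, although both encode H1.

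Among H2A genes Hist1h2ae led with 1629 control and 1448 progesterone UMIs, in 7.58% and 4.72% of cells. Hist3h2a, which lies outside the large cluster, gave 235 and 659 UMIs in 4.94% and 6.95% of cells. Of the H2B genes Hist1h2bc alone gave 2311 and 1989 UMIs, in 25.0% and 14.9% of cells. H2B is the family in which 1 gene dominated. The leading H3 genes, Hist1h3c and Hist1h3e, gave 564 and 457, and 556 and 423 UMIs. The leading H4 gene, Hist1h4d, gave 781 and 1172 UMIs.

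Link to cycling was measured in squamous-like cells, the class with the most cells. Each cell was thinned to 2000 UMIs, and a cell with 4 or more UMIs of 36 S phase and 40 G2/M genes was called cycling, S-leaning where at least 50% of these UMIs were of S genes and G2/M-leaning otherwise. Cells with 0 or 1 such UMI were called non-cycling. The S list holds replication genes such as Mcm and Rrm members, some of which are known to be induced before DNA copying begins, and the histone genes took no part in these calls or in the clustering. This gave 246 S-leaning, 246 G2/M-leaning and 1642 non-cycling control cells, and 285, 166 and 3166 progesterone cells. A cut on a score is a range and not a cell type: 298 and 623 cells lay between the limits.

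Replication histone UMIs were concentrated in cycling cells. Summed over all 67 genes, the control level was 1564 CPM in S-leaning, 2898 CPM in G2/M-leaning and 279 CPM in non-cycling cells. In progesterone cells it was 663, 4360 and 260 CPM. The S-leaning level was 5.60-fold the non-cycling level in control cells (interval 5.31 to 5.91) and 2.55-fold in progesterone cells (2.40 to 2.72). Median depths were 6687, 7125 and 5582 UMIs per control cell and 6472, 6921 and 4971 UMIs per progesterone cell in the same order, so cycling cells were deeper as well. Basal-like cells made up 84.1% of S-leaning and 24.6% of non-cycling control cells, and 84.2% and 67.5% of progesterone cells. Within basal-like cells the log2 ratio of S-leaning over non-cycling cells was 2.17 in control and 1.38 in progesterone cells, against 2.49 and 1.35 over all squamous-like cells.

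In both libraries the level was higher in G2/M-leaning than in S-leaning cells. The S-leaning level was 0.540 times the G2/M-leaning level in control cells (interval 0.515 to 0.565) and 0.152 times in progesterone cells (0.143 to 0.162). Cycling cells were ordered by the percentage of S gene UMIs among S and G2/M UMIs. The highest level was at 20 to 40% S genes in both libraries, in cells with more G2/M than S gene UMIs. From 0 to 20% through to 80 to 100% S genes, the control level was 1802, 4225, 3987, 2236 and 648 CPM over 128, 97, 53, 69 and 145 cells. The progesterone level was 3232, 6392, 3172, 880 and 229 CPM over 103, 49, 44, 60 and 195 cells. The lowest level was in the cells with mostly S gene UMIs in both libraries. In progesterone cells it was 229 CPM (interval 203 to 257), against 260 CPM (252 to 267) in non-cycling cells. These 2 intervals overlap.

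**Figure D2:**
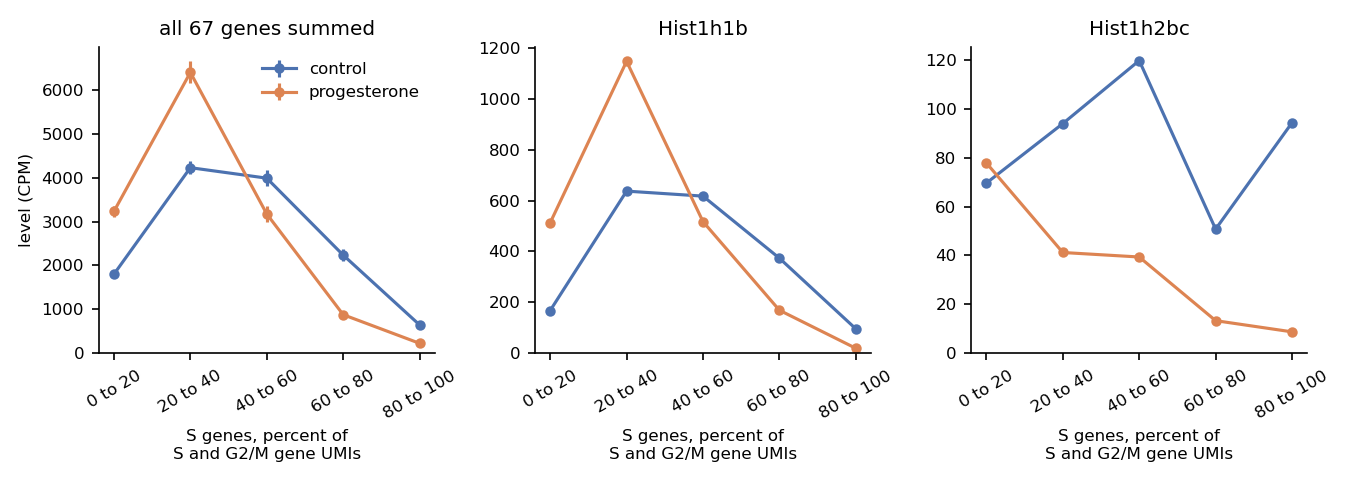
Level in cycling squamous-like cells (CPM, y axes from 0) by the percentage of S gene UMIs among their S and G2/M gene UMIs, for all 67 genes summed (bars: 95% exact Poisson intervals), Hist1h1b and Hist1h2bc. The summed level and Hist1h1b peak at 20 to 40% S genes in both libraries, while Hist1h2bc is highest at 40 to 60% in control and at 0 to 20% in progesterone cells.

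Cells with many member UMIs were rare and mostly cycling. In 2000 UMIs, 115 control cells (3.81%) held 10 or more member UMIs and had 43.1% of the members' thinned UMIs. Of these cells 63.5% were G2/M-leaning and 28.7% S-leaning, and 92 of the 115 were squamous-like. In the progesterone library 89 cells (1.35%) held 28.3% of the members' thinned UMIs, 83.1% of them G2/M-leaning and 11.2% S-leaning, and 78 were squamous-like. Among non-cycling squamous-like cells, 0 of 1642 control and 0 of 3166 progesterone cells reached 10, which allows shares up to 0.224% and 0.116% (exact binomial). The highest count in a non-cycling squamous-like cell was 6 in each library. Outside this class some non-cycling cells did reach 10, namely 9 control and 5 progesterone cells. Of all cells with 10 or more, unnamed clusters 9 and 10 held 1 and 8 in control and 3 and 2 in the progesterone library.

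Gene by gene, a member was called higher or lower at a 2-fold or larger ratio with an interval that excludes 1 and at least 20 UMIs in the cells compared. With both libraries summed, 37 members could be tested between S-leaning and non-cycling cells. Of these 27 were higher and 2 lower, where 6.29% of 12426 genes tested were higher and 5.61% lower. Their median log2 ratio was 2.16, and that of all genes tested was −0.02. Between G2/M-leaning and non-cycling cells 46 members were tested, 40 of them higher (6.36% of all genes) and 1 lower (7.13%), with a median log2 ratio of 4.41. A member that is read only in cycling cells passes the 20-UMI limit only there, so these counts do not describe all 67 members. Single genes are compared over all squamous-like cells, although S-leaning control cells were more often basal-like than non-cycling ones. Ratios by cycling call within basal-like cells are given for the sum alone.

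By library, 23 of 30 control members tested were higher in S-leaning cells (10.1% of all genes) and 2 lower (9.44%). In the progesterone library 12 of 23 were higher (4.49%) and 3 lower (3.2%). In G2/M-leaning cells 31 of 34 control members (8.68%) and 35 of 40 progesterone members (5.93%) were higher, with 1 (8.67%) and 0 (3.6%) lower. Between S-leaning and G2/M-leaning cells, no member was higher in S-leaning cells in either library (2.18% of all control and 2.55% of all progesterone genes), while 15 of 34 were lower in control (2.94%) and 32 of 33 in progesterone cells (4.7%). Over both libraries 40 of 43 were lower (3.3%) and 0 higher (2.46%).

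Among H1 genes, Hist1h1b was nearly confined to cycling cells. Its control level was 254 CPM in S-leaning, 377 CPM in G2/M-leaning and 1.80 CPM in non-cycling cells, and its progesterone level 103, 734 and 2.40 CPM. Over both libraries it was 79.5-fold higher in S-leaning cells (interval 60.8 to 106) and 239-fold higher in G2/M-leaning cells (184 to 316). Hist1h1a was 50.8-fold (26.9 to 106) and 131-fold (71.2 to 267) higher. Hist1h1e rose less, 2.82-fold (2.53 to 3.13) and 8.94-fold (8.27 to 9.67), over a non-cycling level of 38.2 CPM in control and 51.2 CPM in progesterone cells. Hist1h1c was at 33.3 and 16.8 CPM in S-leaning cells and at 26.6 and 41.8 CPM in non-cycling cells of the 2 libraries. In the progesterone library it was thus called lower in S-leaning cells. Only in G2/M-leaning cells was Hist1h1c called higher over both libraries, 2.61-fold (2.29 to 2.97).

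The H2A genes showed the same spread. Hist1h2ae was at 257, 461 and 6.61 CPM in S-leaning, G2/M-leaning and non-cycling control cells and at 107, 714 and 9.07 CPM in progesterone cells, 21.6-fold (18.6 to 25.3) and 69.0-fold (60.0 to 79.7) above non-cycling cells over both. Hist1h2ap was 55.6-fold (40.4 to 78.4) and 168-fold (124 to 235) higher, Hist1h2an 81.0-fold (29.5 to 310.2) and 170.1-fold (63.9 to 639), and Hist1h2ab 16.6-fold (11.98 to 23.4) and 49.6-fold (37.1 to 67.5). Hist2h2ac was 3.496-fold (2.95 to 4.13) and 12.5-fold (11.04 to 14.1) higher. Hist1h2af had 31 UMIs in G2/M-leaning and 0 in non-cycling cells, at least 87.9-fold higher against a floor of 3 counts over the group. Hist3h2a went the other way: it was at 1.75 CPM in S-leaning and 13.9 CPM in non-cycling control cells and at 7.11 and 19.7 CPM in progesterone cells, 0.263 times the non-cycling level over both (0.152 to 0.425). In G2/M-leaning cells its ratio was 0.750 (0.534 to 1.03).

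For H2B, Hist1h2bc had about the same level whatever the cycling call in control cells, 87.6 CPM in S-leaning, 81.0 CPM in G2/M-leaning and 84.7 CPM in non-cycling cells. In progesterone cells it was at 12.7, 65.4 and 46.4 CPM and was called lower in S-leaning cells. Over both libraries its ratios were 0.785 (0.668 to 0.918) and 1.23 (1.07 to 1.41), neither of them called. Of the less read H2B genes, Hist1h2bn was 64.4-fold (23.0 to 249) and 168-fold (63.1 to 632) higher and Hist1h2bj 19.1-fold (10.3 to 37.4) and 69.7-fold (40.7 to 128) higher. Hist1h2bk, with 3 UMIs in non-cycling cells, was 59.5-fold (17.8 to 312) higher in G2/M-leaning cells.

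Among H3 genes Hist1h3c was 36.8-fold (24.7 to 56.4) and 184-fold (128 to 275) higher, Hist1h3a 12.2-fold (7.06 to 21.4) and 18.5-fold (11.1 to 31.7), and Hist1h3e 4.53-fold (3.62 to 5.67) and 15.4-fold (12.9 to 18.3). Hist2h3c2 was lower, with 1 UMI in S-leaning, 0 in G2/M-leaning and 54 in non-cycling cells, a ratio of 0.136 for S-leaning cells with an interval of 0.00339 to 0.792. The read H4 genes had small ratios: Hist1h4d was 2.18-fold (1.83 to 2.58) and 7.02-fold (6.21 to 7.92) higher and Hist1h4i 2.26-fold (1.59 to 3.15) and 6.22-fold (4.83 to 7.99).

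Some members called in S-leaning cells over both libraries were not called in each library alone. Hist1h2an, Hist1h2bn, Hist1h2bj and Hist1h3a were called higher in control cells and fell under the 20-UMI limit in progesterone cells, where their ratios were 60.8, 78.2, 19.5 and 11.9. Hist2h3c2, called lower in control cells, was under that limit too, with 0 S-leaning and 10 non-cycling progesterone UMIs. Hist1h3e and Hist1h4d were tested in both libraries and called higher only in control cells. Hist1h3e was at 64.8 CPM in S-leaning and 8.81 CPM in non-cycling control cells (ratio 7.36, interval 5.52 to 9.85), and at 9.65 and 7.19 CPM in progesterone cells (1.34, 0.781 to 2.19). Hist1h4d was 2.71-fold (2.12 to 3.46) and 1.74-fold (1.34 to 2.23) higher. Hist1h4i was called only in progesterone cells, with 1.85-fold (1.16 to 2.89) in control and 2.55-fold (1.47 to 4.26) in progesterone cells. In G2/M-leaning cells Hist1h2af and Hist1h2bk were called higher over both libraries on few UMIs. Hist1h2af had 9 and 22 UMIs and Hist1h2bk 19 and 5 UMIs in the G2/M-leaning and non-cycling cells of the control and progesterone libraries, so only Hist1h2af in progesterone cells could be tested, and it was called.

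The share of a member's UMIs that lay in cycling cells summarised these patterns and was set beside the annotated ends. Of the UMIs of all genes in squamous-like cells, 17.6% lay in S-leaning or G2/M-leaning cells, which were 14.1% of the cells. For the 67 members the share was 63.4%, 70.7% in control and 56.4% in progesterone cells. It was 93.3% for members annotated to the stop codon, 79.5% for those with the stem-loop within 100 bases of the end, 56.8% for those with the stem-loop followed by 100 bases or more, and 25.7% for those without the pattern and with a longer end. The order of these 4 groups was the same in both libraries, 94.9, 83.4, 67.9 and 31.0% in control and 91.6, 75.2, 48.0 and 18.9% in progesterone cells. Single genes weigh heavily in these sums, Hist1h1b in the first and Hist1h2bc in the last. Medians over members with at least 20 UMIs were 90.3% (9 members), 85.7% (15), 52.6% (22) and 46.0% (4), in the same order.

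The groups overlapped gene by gene. Hist1h1b had 96.7% of its UMIs in cycling cells, Hist1h2bn 96.6%, Hist1h2ap 95.5%, Hist1h3c 95.1% and Hist1h1a 94.96%. Hist1h2ae had 90.2% although its transcript is annotated 151 bases past the stem-loop and carries a hexamer. Hist1h1e had 53.9%, Hist1h4d 49.0% and Hist1h4i 44.8%, and no H4 gene with at least 20 UMIs passed 60.7%. Low shares were those of Hist1h1c at 25.2%, Hist1h2bc at 17.0%, Hist2h2be at 14.6%, Hist3h2a at 9.69% and Hist2h3c2 at 1.45%. The last 4 of these lie below the 17.6% of all genes. The intervals of Hist1h2bc (15.6 to 18.6%) and Hist2h2be (5.57 to 29.2%) include that value. Of these 5, Hist1h1c, Hist2h2be and Hist3h2a are among the 17 with a hexamer in the last 50 bases. Hist4h4, Hist3h2ba, Hist2h3c1 and Hist2h4, named after their values were seen, lay between 20% and 23.4%. Of all these low members only Hist1h1c and Hist1h2bc lie on chromosome 13, while other members outside it had higher shares, Hist2h2bb 76.9%, Hist2h2ac 62.3% and Hist2h2aa1 48.8%.

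**Figure D3:**
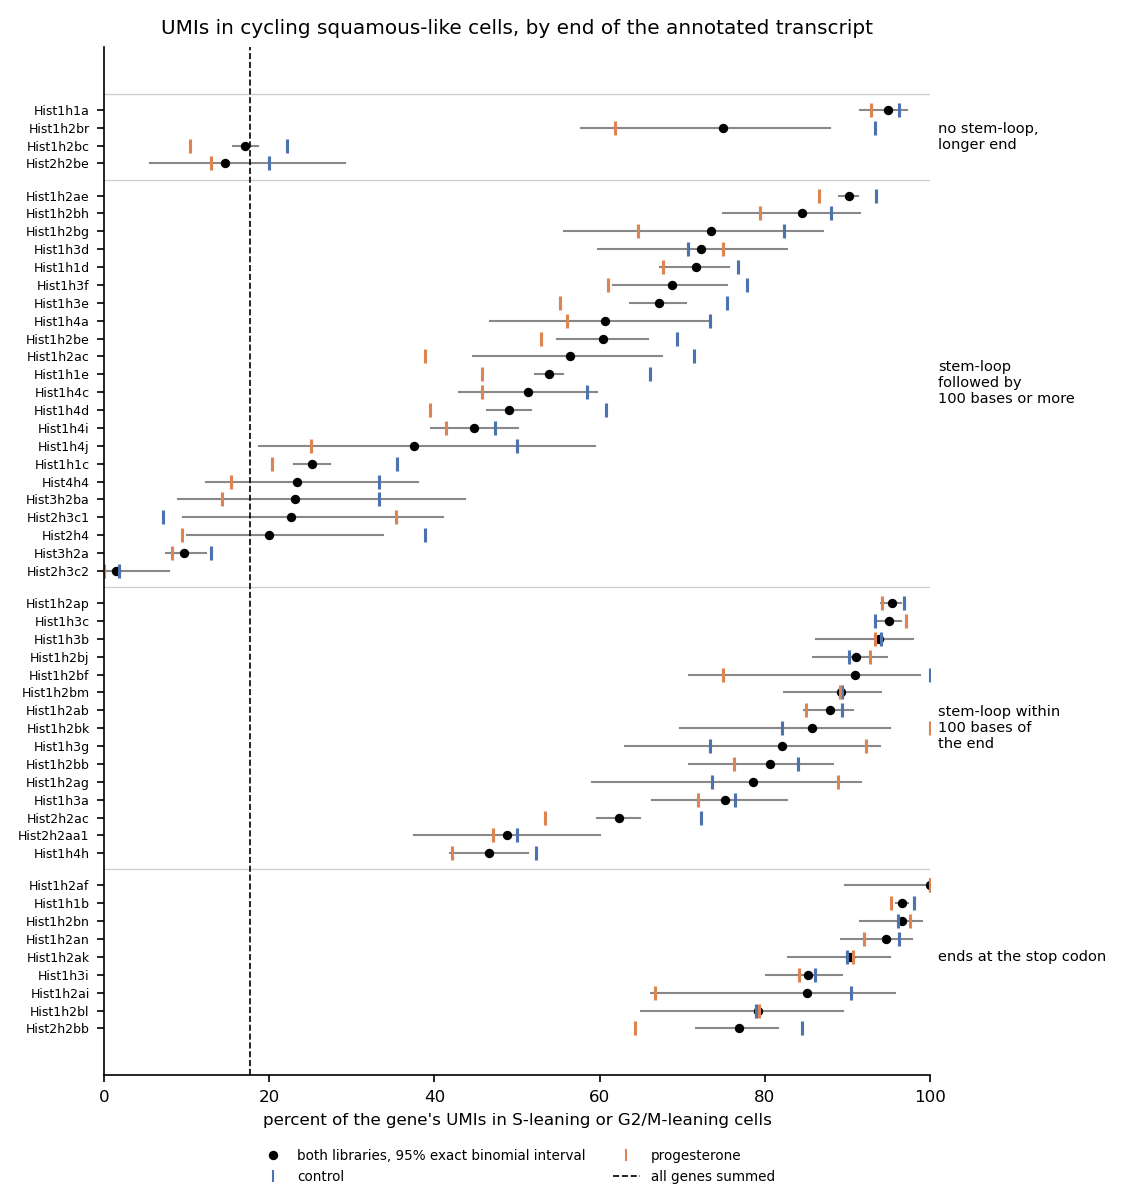
Percentage of each gene's squamous-like UMIs that lay in S-leaning or G2/M-leaning cells, for genes with at least 20 such UMIs, grouped by the end of the annotated transcript. Black points with grey bars are both libraries with 95% exact binomial intervals, coloured ticks are single libraries, and the dashed line is the 17.6% of all genes summed; genes annotated to the stop codon lie from 76.9% upward, and genes with the stem-loop followed by 100 bases or more spread from 1.45 to 90.2%.

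The promoters of the members were searched for known histone promoter motifs. RefSeq promoters (GRCm38.p6, 250 bases before to 50 after the start) matched 61 of the 67 members. On either strand the TATAAA letters were present in 34 of 61, against 14.2% of 27025 promoters of the same length. The CCAAT letters were in 52 of 61, against 37.9%. All H1, H2A, H2B and H3 promoters held CCAAT, and 3 of 12 H4 promoters did. The octamer ATTTGCAT was in 13 of 61, against 1.75%, and these 13 were 7 H2A and 6 H2B promoters. Some H2A and H2B members lie head to head, so their promoters overlap and the same site is counted for both. Hist1h2ae with Hist1h2bg and Hist1h2ah with Hist1h2bk are such pairs, each with a shared octamer. The 61 are therefore not all separate stretches. Members with TATAAA had a median cycling share of 80.7% and those without of 76.9%, and for the octamer the medians were 78.8% and 76.8%. A match is a description of letters and not of a bound site. Only the exact letters were searched, so a promoter without a match can still hold a variant of them, left in lower case below. Only 4 members with a share lacked CCAAT, with a median of 41.1% against 79.9%, and they are H4 genes. The 250 bases upstream of Hist1h1b (cycling share 96.7%) and of Hist1h1c (25.2%) are shown with motif letters in capitals (CCAAT or its reverse complement ATTGG, and TATAAA).
Hist1h1b, chr13:21780626-21780875, minus strand: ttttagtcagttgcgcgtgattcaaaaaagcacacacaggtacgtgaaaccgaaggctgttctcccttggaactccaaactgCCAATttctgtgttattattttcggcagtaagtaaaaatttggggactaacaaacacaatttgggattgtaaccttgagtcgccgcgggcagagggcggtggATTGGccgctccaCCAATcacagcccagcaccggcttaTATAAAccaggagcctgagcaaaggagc
Hist1h1c, chr13:23738557-23738806, plus strand: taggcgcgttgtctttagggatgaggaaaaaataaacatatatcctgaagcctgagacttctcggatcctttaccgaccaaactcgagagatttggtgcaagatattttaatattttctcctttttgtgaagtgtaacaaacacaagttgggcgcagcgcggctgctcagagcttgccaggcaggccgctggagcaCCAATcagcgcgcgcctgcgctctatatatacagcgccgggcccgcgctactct

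Other genes of histone supply were followed in the same cells. Of 17 tested genes of histone mRNA processing, 3 were higher in S-leaning cells over both libraries (6.29% of all genes), namely Slbp, the stem-loop binding protein, at 4.96-fold, Casp8ap2 at 3.72-fold, and Npat, the coactivator of histone transcription, at 2.04-fold. In G2/M-leaning cells Slbp was higher by 2.20-fold, Eri1, an exonuclease of histone mRNA, by 2.14-fold and Srrt by 2.06-fold, and Ctif was lower at 0.211 times. Of 16 histone chaperones 8 were higher in S-leaning cells (6.29% of all genes) and 9 in G2/M-leaning cells (6.36%), among them Asf1b at 24.5-fold, Chaf1a at 12.5-fold and Nasp at 5.04-fold in S-leaning cells. Of 11 replacement histone genes outside the clusters 4 were higher in S-leaning (6.29%) and 6 in G2/M-leaning cells (6.36%), H2afz at 2.88-fold and 5.08-fold and H2afx at 4.03-fold and 17.2-fold. The polyadenylated H3.3 genes H3f3a (1.07-fold and 1.01-fold) and H3f3b (0.845-fold and 1.29-fold) were not called, and Cenpa, counted among the 4 and the 6, is also a gene of the G2/M list.

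Across cells, thinned member UMIs had a Spearman correlation of 0.22 with S gene UMIs and 0.34 with G2/M gene UMIs in control cells (2432 cells) and of 0.04 and 0.18 in progesterone cells (4240 cells). For Hist1h1b these were 0.34 and 0.41, and 0.23 and 0.35. For Hist1h2bc all 4 lay between −0.08 and 0.04. The cells share a library and most hold few such UMIs, so weak values carry no finding.

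Levels were then compared between cell classes. Squamous-like cells were at 742 CPM in control and 516 CPM in progesterone cells. Basal-like cells, the layer in which most cycling squamous-like cells lay, were at 1388 and 545 CPM, intermediate cells at 432 and 471 CPM, and suprabasal-like cells at 389 and 327 CPM. Luminal-like cells were at 646 and 238 CPM and macrophage-like cells at 687 and 358 CPM. Fibroblast-like cells (232 and 183 CPM) and endothelium-like cells (318 and 236 CPM), few in number, had overlapping intervals between the libraries.

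Neutrophil-like cells, which do not divide once mature, were at 452 and 624 CPM at median depths of 580 and 772 UMIs. Hist1h2bc made 117 and 193 CPM of this and Hist1h1c 43.7 and 109 CPM, while Hist1h1b was at 4.86 and 10.9 CPM from 1 and 4 UMIs. The summed level lay below that of all cells in control (758 CPM) and above it in progesterone cells (455 CPM). In neither library was it made of Hist1h1b. In cells thinned to 2000 UMIs, Hist1h1b was found in 5.47% of control and 3.04% of progesterone squamous-like cells, in 1.92% and 0.685% of luminal-like cells, and in 0 of 72 fibroblast-like progesterone cells (exact binomial interval up to 4.99%). Hist1h2bc was found in 13.9% and 8.02% of squamous-like, 25.6% and 6.29% of luminal-like and 8.33% of fibroblast-like progesterone cells. The fibroblast-like share rests on 6 of 72 cells (interval 3.12 to 17.3%), too few to set it apart from the squamous-like share (7.22 to 8.88%), and median depths before thinning were 2512 and 4847 UMIs. Unthinned shares for Hist1h2bc were 28.1% and 16.8% in squamous-like and 31.3% and 14.5% in luminal-like cells.

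**Figure D4:**
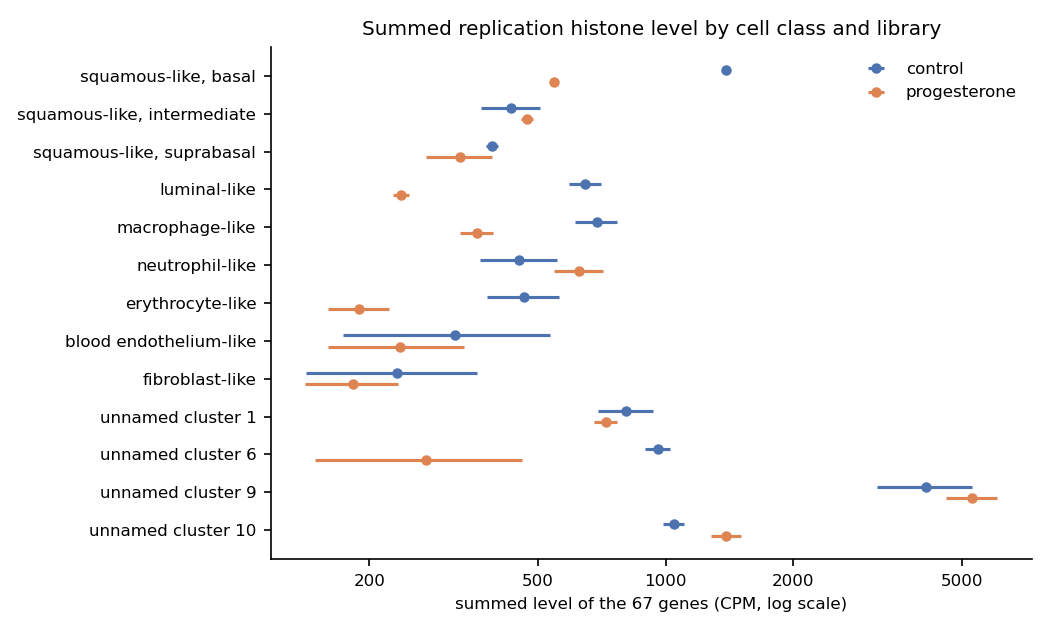
Summed level of the 67 genes by cell class and library (CPM, log axis) with 95% exact Poisson intervals. Basal-like control cells at 1388 CPM lie above every other named class, and unnamed clusters 9 and 10 lie at 1043 to 5276 CPM.

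The summed level was lower in the progesterone library over all cells and in most classes. It was 758 CPM in control (interval 746 to 771) and 455 CPM in progesterone cells (448 to 462), a log2 ratio of −0.74. The log2 ratio was −0.52 in squamous-like, −1.44 in luminal-like and −0.94 in macrophage-like cells, and 0.47 in neutrophil-like cells. The luminal-like value was −0.70 with the libraries clustered apart and −0.76 with a stricter cell filter. Cycling cells were 20.2% of the squamous-like control and 10.6% of the squamous-like progesterone cells, and whether this difference accounts for the lower level was not tested. Clusters with cells of both libraries differed among themselves. Among squamous-like cells the log2 ratio was −1.23 in cluster 4, −1.08 in cluster 5 and −0.16 in cluster 8. It was −0.06 in cluster 11 and 0.12 in cluster 0, and −1.05 in luminal-like cluster 13. Clusters 4, 5, 8 and 11 made up the basal-like cells. In basal-like cells together the log2 ratio was −1.35, beyond that of each of these clusters. Of 43 members tested there 31 were lower (6.38% of all genes) and 0 higher (6.9%), with a median of −1.65. Cluster 5, the highest of them in level, held 826 of 1328 basal-like control cells but 193 of 3285 basal-like progesterone cells. How far this mix of clusters enters the −1.35 was not tested. Median depths differed in these clusters too, 1290 and 4448 UMIs in cluster 4 and 5187 and 7308 UMIs in cluster 5.

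Split by cycling call, squamous-like cells did not all go the same way. The log2 ratio of progesterone over control was −1.24 in S-leaning, 0.59 in G2/M-leaning, −0.39 in cells between the limits and −0.11 in non-cycling cells. Of 25 members tested in S-leaning cells 18 were lower (5.34% of all genes) and 0 higher (8.19%), with a median log2 ratio of −1.30. Of 38 tested in G2/M-leaning cells 6 were higher (8.42%) and 1 lower (6.01%), with a median of 0.36. The 6, named after their values were seen, were Hist1h1c, Hist1h1d, Hist1h2af, Hist1h2ap, Hist1h2bl and Hist1h4a. In non-cycling cells 6 of 28 were lower (6.57%) and 0 higher (12.4%).

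**Figure D5:**
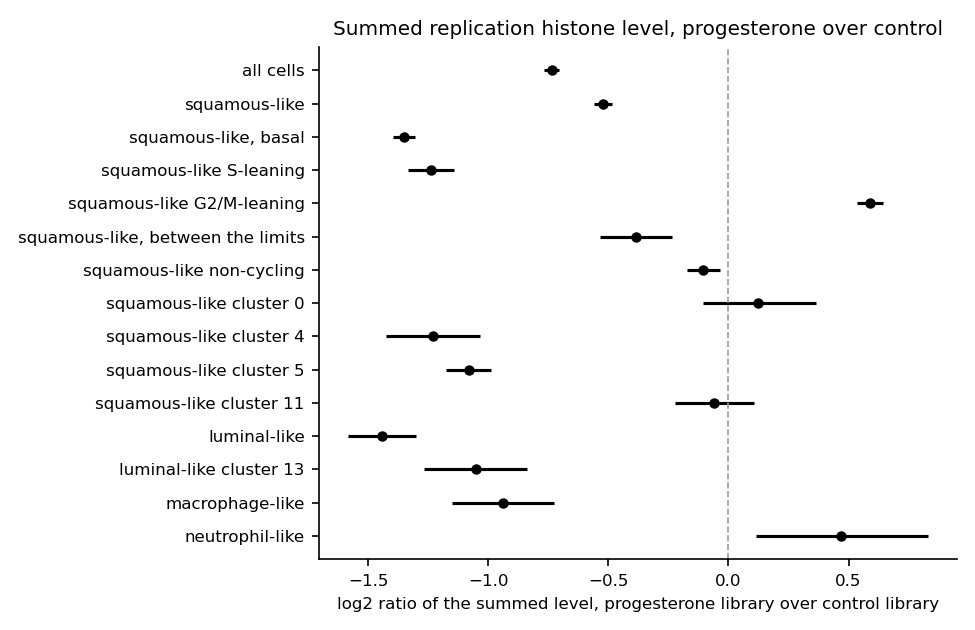
Log2 ratio of the summed level of the 67 genes, progesterone over control library, in all cells, classes, cycling calls and single clusters, with 95% intervals for counting error. The dashed line marks equal levels; S-leaning cells lie at −1.24 and G2/M-leaning cells at 0.59.

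Over squamous-like cells as a whole, 20 of 50 members tested were lower in the progesterone library (6.56% of all genes) and 0 higher (9.91%), with a median log2 ratio of −0.70 against 0.10 for all genes. Hist1h2bk fell from 1.81 to 0.290 CPM (ratio 0.160, interval 0.0592 to 0.373), Hist2h3c2 from 3.69 to 0.664 CPM (0.180, 0.0966 to 0.317) and Hist1h3a from 5.32 to 1.33 CPM (0.2497, 0.161 to 0.379). Hist1h2bj fell from 7.88 to 2.32 CPM and Hist1h2ab from 21.4 to 6.68 CPM. All 5 are core histone genes with low to moderate levels. The most read members moved less. Hist1h1e was at 85.4 and 84.9 CPM, a ratio of 0.994 (0.928 to 1.07). Hist1h1b was at 74.3 and 50.6 CPM, Hist1h2ae at 89.3 and 54.5 CPM and Hist1h2bc at 88.1 and 44.6 CPM (0.506, 0.467 to 0.549), none of them past the 2-fold limit. Hist1h1c was at 33.5 and 44.7 CPM (1.34, 1.20 to 1.48) and Hist3h2a at 12.1 and 17.9 CPM (1.48, 1.25 to 1.76), higher in the progesterone library within the 2-fold limit.

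In luminal-like cells 7 of 18 members tested were lower (5.83% of all genes) and 1 higher (8.48%), with a median log2 ratio of −1.01. Hist1h3c fell from 46.9 to 1.85 CPM (ratio 0.0395, interval 0.0209 to 0.0719), Hist1h2ae from 64.6 to 5.44 CPM (0.0843, 0.0559 to 0.127), Hist1h2ap from 25.3 to 2.83 CPM and Hist1h1b from 34.2 to 4.03 CPM. Hist1h2bc, which was not of the cycling kind in squamous-like cells, fell as well, from 158 to 37.8 CPM (0.239, 0.194 to 0.295). Control values here rest on 789594 UMIs of 224 cells, so Hist1h3c had 37 control UMIs and Hist1h1b 27. These UMIs lay in few cells. Hist1h3c was found in 3.57%, Hist1h2ae in 2.68% and Hist1h2ap and Hist1h1b each in 1.79% of the luminal-like control cells. Their falls therefore rest on a small number of control cells, which the intervals do not cover. Hist1h4d, at 35.5 and 26.8 CPM, and Hist1h1e, at 48.1 and 38.8 CPM, had intervals that include 1. The 1 counted as higher was Hist2h2be, with 0 control and 54 progesterone UMIs (5.88 CPM). Against a floor of 3 counts in the control cells it was at least 1.55-fold higher, which is short of the 2-fold limit, so its call rests on the control count of 0. In macrophage-like cells 4 of 12 members tested were lower (12.8% of all genes) and 0 higher (8.8%). In neutrophil-like cells, where 5 members could be tested, 1 was higher (4.58%), namely Hist1h1c.

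By family, the ratio of progesterone over control over all cells was 0.793 for H1 (218 and 173 CPM), 0.714 for H4 (82.3 and 58.8 CPM), 0.541 for H2A (207 and 112 CPM), 0.456 for H2B (166 and 75.7 CPM) and 0.422 for H3 (85.2 and 36.0 CPM). The intervals of H1 (0.763 to 0.824) and H4 (0.670 to 0.762) do not overlap those of the other families. Gene by gene over all cells, 27 of 54 members tested were lower (5.54% of all genes) and 1 higher (11.2%), with a median log2 ratio of −1.04 against 0.15 for all genes. Hist2h2be was the higher one, at 0.597 and 2.39 CPM.

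The 4 clusters without a name held 12.7% of control and 9.64% of progesterone cells, and some were rich in these genes. Cluster 9, with 19 and 26 cells at a median of 732 UMIs, was at 4109 and 5276 CPM, the highest of all clusters. Cluster 10, with 181 and 34 cells and Sprr2d, Psca and Ltf among its leading genes, was at 1043 and 1391 CPM. Within it Hist1h2bc was at 509 and 748 CPM and made up 48.8% and 53.8% of its member UMIs, Hist1h1c was at 209 and 402 CPM and Hist1h4i at 85.9 and 91.2 CPM. Only 2 control cells of cluster 10 and 0 progesterone cells were S-leaning and none was G2/M-leaning. This cluster therefore carried a high summed level with almost no cycling cells.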

How the data were processed

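The values deposited are unnormalised UMI counts, per the file headers, made with Cell Ranger 3.0.2 on mm10, per the submitters' processing notes. The annotation and the handling of reads that fit several genes are not given in the sources used here. A minimum of 200 genes and a maximum of 20% mitochondrial UMIs left 4760 control and 9221 progesterone barcodes, and doublets were removed by Scrublet score at 0.8% per 1000 cells (181 and 680). Cells were clustered together with scanpy 1.11.5 (2000 variable genes, 30 components, 15 neighbours, Leiden resolution 1), leaving out mitochondrial genes and 187 genes of the lists. Clusters took their names from markers of 19 cell classes. Thresholds for naming were chosen once clusters were known, and a cluster whose score, lead, depth or leading genes failed them stayed unnamed. Names are written as X-like.

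Levels are summed counts per 1000000 UMIs with exact Poisson intervals. Ratios have exact conditional binomial intervals and shares Clopper-Pearson intervals, all at 95%. Cells under 2000 UMIs (1559 and 1946) were left out of thinned values. No test between groups was possible with 1 pool per group. Genes named were the 12 members with the most UMIs, the called members nearest the top by interval bound (up to 8 or 5 in each direction) and the leading genes of the other lists. Members and lists were chosen with earlier results of these data known. Ars2 and Tut7 of the processing list were not matched by symbol. Transcript ends were read from GENCODE M21 and promoters from RefSeq GRCm38.p6, with 61 of 67 members matched through older symbols. Alternatives covered doublets, filters, clustering, totals, thinning, cycling limits and the UMI minimum.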

Additional observations from a re-analysis of the deposited data

Results flagged for a closer look

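Hist1h1c, a linker histone gene, had opposite signs in the 2 main epithelial classes. Its log2 ratio of progesterone over control was 0.42 in squamous-like and −0.72 in luminal-like cells, and the difference between the classes was not tested. Both values lie within the 2-fold limit.

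Unnamed cluster 1, which took no part in the comparisons of named classes, had Hist1h1b among its 10 leading genes. Hist1h1b was at 86.1 CPM in its 177 control cells and at 161 CPM in its 752 progesterone cells, against 74.3 and 50.6 CPM in squamous-like and 4.86 and 10.9 CPM in neutrophil-like cells. Only 13 of the control and 49 of the progesterone cells of the cluster carried a UMI of it. The cluster's median depth was 1106 UMIs, and 150 of its control and 536 of its progesterone cells held fewer than 2000. Its median mitochondrial share was 2.71% in control and 0.570% in progesterone cells, against 5.08% and 5.96% over all cells.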

How the results depend on the processing

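With 1 pool per library there is no replicate to leave out. No paired analysis was possible because each group has 1 library. No direction reversed under any alternative run. The count of 27 members higher in S-leaning cells ranged from 24 to 29 with the minimum kept at 20 UMIs. It was 38 with a minimum of 5 UMIs, under which more members can be tested. Numbers tested and shares over all genes are not given for these counts. Without doublet removal the log2 ratio of progesterone over control was −0.75 in squamous-like and −1.02 in luminal-like cells. At Leiden resolution 2 these were −0.70 and −1.26, and with libraries clustered apart −0.67 and −0.70. The stricter cell filter gave −0.76 in luminal-like cells. Totals without mitochondrial, ribosomal protein and the 20 most abundant genes gave −0.62 over all cells and −0.34 in squamous-like cells. The mean CPM of single cells gave −0.53 over all cells and −1.05 in luminal-like cells. Without the member with the most UMIs the ratios were −0.83 over all cells, −0.61 in squamous-like and −1.59 in luminal-like cells. For S-leaning over non-cycling cells, thinning to 4000 UMIs gave log2 ratios of 2.59 in control and 1.57 in progesterone cells. A cycling limit of 3 UMIs gave 2.27 and 1.04, a limit of 6 gave 2.92 and 1.92, and all analysed cells gave 2.17 in control. Chosen after seeing the data, the mean over squamous-like clusters with cells of both libraries gave −0.48, luminal-like cluster 13 alone gave −1.05, and basal-like cells alone gave 2.17 in control. Depth limits members under 20 UMIs, which were not tested, and the luminal-like control cells.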
